A study of Mus musculus with 30 samples.

Results

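Bub1b_R and Control_R are rescue clones of Ainv15, a mouse embryonic stem cell (ESC) line that expresses the reverse tetracycline transactivator. In Bub1b_R, a short hairpin RNA (shRNA) depletes the endogenous Bub1b mRNA, and doxycycline (Dox) turns on a Bub1b cDNA that lacks the shRNA target. Control_R is the control clone, for which the labels also give the strain background 129P2/OlaHsd. The comparison described here was made while Dox (1 μg/ml) was present, so that it asks which differences from the control clone were left when the rescue transcript was on. The members were the 3 arrays of Bub1b_R with Dox and the 3 arrays of Control_R with Dox, taken by their labels, of 30 Illumina arrays in all. The 3 arrays of each clone after 5 days without Dox, which share no array with the former, were used to read how far each difference depended on Dox. Per the paper, the cells for the arrays were kept without feeder cells. It also states that the transduced cells were first grown on primary MEFs, which a short plating step removed before its differentiation assay. The sources used here do not say whether the 3 arrays of a condition came from separate cultures or from separate clones. P-values therefore measure only the spread between replicate arrays, which may be technical. This spread and each SE come from 1 fit of all 30 arrays in 10 conditions, not from the 6 arrays compared alone. Clone, culture and hybridisation batch cannot be told apart.

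Bub1b encodes BubR1, a subunit of the mitotic checkpoint complex, which holds the anaphase-promoting complex inactive until every kinetochore is attached to the spindle. Mouse ESCs in LIF medium express the pluripotency factors Oct4 (Pou5f1), Sox2, Nanog and Esrrb. When they leave this state they pass through a formative and primed epiblast stage, marked by Fgf5, Pou3f1 and Dnmt3b. Wnt, Nodal, BMP and FGF signals then induce the genes of the primitive streak, such as Brachyury (T), Mixl1 and Evx1, from which mesoderm arises, and Cdx and Hox genes pattern its posterior end.

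The shRNA of the rescue construct is shown because its target is what separates the endogenous from the rescue transcript. The 21 bases below are those listed by the study for this construct, and the capitals mark the whole target.
Bub1b shRNA target: GCACACTTAGACACATCAGCA

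Levels are given as normalized log2 intensity, and a difference is the mean of Bub1b_R minus that of Control_R on this scale. A probe was called at an adjusted p under 0.05 and a difference of at least 1.5-fold. Each gene is represented by its brightest tested probe. Between 12913 and 13307 probes were detected on each of the 6 arrays, with a Pearson r of 0.993 to 0.996 between replicate arrays of the 4 conditions used. The median SD between replicate arrays with Dox was 0.12.

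With Dox, 1923 of 15151 tested probes (12.7%) were called, of which 1000 were higher and 923 were lower in Bub1b_R. By gene, 1489 of 11177 (13.3%) were called, 769 higher (6.88%) and 720 lower (6.44%). The counts called in the gene lists below are to be read beside these shares. The intensities of the 3 arrays of each clone did not overlap for 51.2% of genes. When the arrays were scaled to one median in place of quantiles, 1425 probes were higher and 657 lower, and the median of all tested probes lay at 0.08 in place of 0.00. Low intensities are compressed by the offset that is added before taking logarithms, and the number called was 495 with an offset of 200.

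Bub1b itself was lower in Bub1b_R with Dox. Its single tested probe read 9.82, 9.84 and 9.87 in Bub1b_R and 10.51, 10.65 and 10.48 in Control_R, so that the clones did not overlap. The difference was -0.70 ± 0.08 (SE of the fit of all 30 arrays, with 3 arrays per clone, adjusted p = 1.1e-07), a 1.62-fold lower level. Scaling to the median gave -0.56 (adjusted p = 3.0e-05), below the 1.5-fold limit. Without Dox the probe read 9.72, 9.64 and 9.75 in Bub1b_R and 10.27, 10.44 and 10.40 in Control_R, a difference of -0.67. The change in the difference with Dox withdrawal was 0.03 (adjusted p = 0.905). In the rescue clones of other genes with Dox, the mean was 10.31 in Ppm1g_R, 10.27 in Chek1_R and 9.99 in Ppp2r1b_R. In Bub1b_R it was 9.84 and in Control_R 10.54. A level below Control_R was thus not particular to Bub1b_R, and these clones were compared without a test. The rescue cDNA lacks the 3′ UTR and the position of the array probe was not given, so this probe may read the endogenous transcript alone, and it does not check whether the rescue transcript was on.

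The tested partners of BubR1 differed by small amounts with Dox. Of 30 tested spindle checkpoint and kinetochore genes, Bub1b alone was called, and the median difference was -0.07 beside 0.00 over all genes. The arrays of the clones did not overlap for 20 of the 30, beside 51.2% of all genes. Bub1 and Cenpe did not pass the detection filter, and Knl1 was not found on the array. Mad2l1, which binds Cdc20 in the checkpoint complex, differed by 0.08, and Cdc20, the activator that the complex holds, by 0.07. Bub3, which carries BubR1 to kinetochores, was 0.33 higher (adjusted p = 0.00438), below the fold limit. Closest to the limit were 2 outer kinetochore genes, Dsn1 at -0.55 and Spc25 at -0.52. Both passed the limit on leaving out 1 array, Dsn1 without Bub1b_R replicate 2 (-0.60) or Control_R replicate 3 (-0.59), and Spc25 without Bub1b_R replicate 1 (-0.59). Among 40 further genes of mitotic entry and exit, 3 were lower and none higher. These were Aurkc (-1.07), an Aurora kinase best known from meiosis, Pttg1 (-0.83), which encodes securin, and Kif18a (-0.61), a kinesin that limits chromosome oscillation. The call of Kif18a was lost without Bub1b_R replicate 3 (-0.47) or Control_R replicate 2 (-0.50).

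Among the 12 genes with the largest positive differences were T, Fgf8, Fgf5, Cdx2, Sp5, Wnt8a and Hoxc6. T, the T-box factor of the primitive streak, read 9.37, 9.44 and 9.43 in Bub1b_R and 5.41, 5.56 and 6.00 in Control_R, where 2 of 3 arrays detected it. All Bub1b_R arrays lay above all Control_R arrays, by 3.76 ± 0.11 on average (13.5-fold, adjusted p = 5.1e-18). Fgf8, an FGF ligand of the streak, was 3.29 higher, with 9.75, 9.53 and 9.70 against 6.43, 6.39 and 6.27. Fgf5, the ligand that marks primed epiblast, was detected on every Bub1b_R array at 7.98, 8.25 and 8.16. It was not above background on any Control_R array, so that its level was at least 6.1-fold higher in Bub1b_R (measured difference 3.28, adjusted p = 2.3e-15). A fold written as "at least" takes, for a clone in which no array detected the gene, the lowest signal that counted as detected there.

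**Figure D1:**
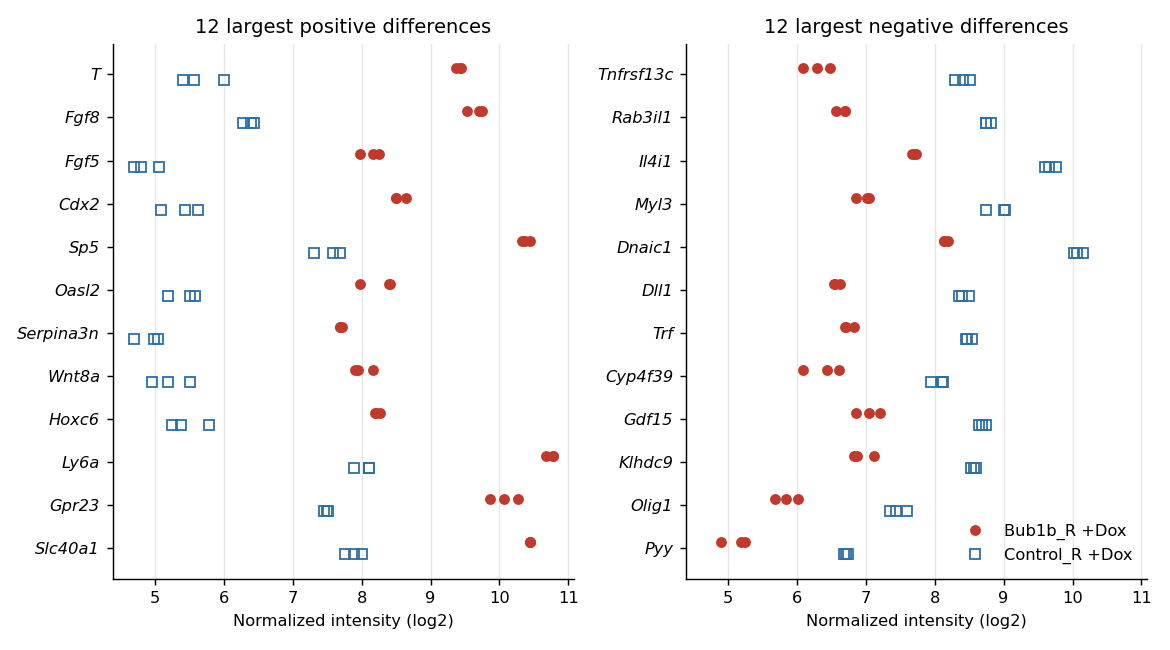
Normalized log2 intensity (horizontal axis) on each array with Dox of the 12 genes with the largest positive (left) and the 12 with the largest negative difference (right). Filled circles are the 3 arrays of Bub1b_R and open squares those of Control_R. The arrays of the clones did not overlap for any of these genes, which the selection required.

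Cdx2, a homeobox factor of the trophectoderm and of the posterior embryo, was 3.16 higher, with 8.64, 8.50 and 8.50 against 5.44, 5.63 and 5.09. Sp5, a zinc finger target of Wnt signaling, was 2.85 higher, with 10.37, 10.33 and 10.45 against 7.68, 7.31 and 7.59. Wnt8a, a Wnt ligand of the streak, was at least 5.57-fold and Serpina3n, a serine protease inhibitor of the acute phase response, at least 4.51-fold higher. Also among the 12 highest were Oasl2 (2.83), an interferon-induced gene, and Hoxc6 (2.76), Ly6a (2.71), which encodes the surface protein Sca-1, the lysophosphatidic acid receptor gene Gpr23 (2.58) and the iron exporter Slc40a1 (2.56). A second, dimmer probe of Oasl2 gave 0.52 and was not called. Each of these 12 differences was also called without Dox.

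The largest negative differences were smaller. Tnfrsf13c, which encodes the BAFF receptor of B cells, read 6.08, 6.48 and 6.29 in Bub1b_R and 8.41, 8.51 and 8.29 in Control_R, a difference of -2.12 ± 0.13 (4.34-fold lower, adjusted p = 6.9e-12). Myl3, a myosin light chain, differed by -1.95, and Dnaic1, a dynein chain of motile cilia, differed by -1.93. The Notch ligand Dll1 read 6.55, 6.54 and 6.63 against 8.40, 8.35 and 8.50, a difference of -1.85. Further genes among the 12 lowest were the transferrin gene Trf (-1.75), the stress-induced TGF-β family cytokine Gdf15 (-1.66), the oligodendrocyte factor Olig1 (-1.61), and Pyy, a gut hormone not detected on any Bub1b_R array and at least 2.36-fold lower there. All 12 were lower without Dox as well.

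Of 16 formative and primed epiblast genes, 9 were higher in Bub1b_R with Dox and 1 was lower, and their median difference was 0.89. The share called was 62.5%, beside 13.3% of all genes. Enpp2, which encodes autotaxin, was 2.39 higher, the carbonic anhydrase Car14 1.43 and the zinc finger factor Zic2 1.41 (at least 2.02-fold). Dnmt3b, the de novo DNA methyltransferase of the epiblast, was among the brightest probes, at 13.28, 13.43 and 13.34 against 12.07, 12.12 and 12.08, a difference of 1.26. Pou3f1 (Oct6) was 0.89 higher, and Otx2 differed by 0.55, which was not called. Fgf15 was the exception, at -0.83.

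Of 27 primitive streak and mesoderm genes, 12 were higher and none lower (44.4% called, beside 13.3% of all genes). Besides T, Fgf8, Cdx2, Sp5 and Wnt8a, these included Fst, which encodes the activin antagonist follistatin, at least 4.52-fold higher (measured difference 2.54), and Evx1, a homeobox factor of the posterior streak. Evx1 read 7.60, 7.75 and 7.55 against 5.70, 5.53 and 6.23, a difference of 1.81. The chemokine Cxcl12 was 1.93 higher, the apelin receptor Agtrl1 (now Aplnr) at least 1.21-fold, Wnt3 at least 1.44-fold, and Bmp4 0.86. Mixl1 was called at 0.68 (adjusted p = 1.2e-05), but only 1 array of Bub1b_R and no array of Control_R detected it, and the call was lost without Control_R replicate 2 (0.58) and after median scaling (0.52). Mesp1 (0.29), Gsc (0.34), Eomes (0.17) and Lhx1 (0.42) were not called, and Eomes and Lhx1 were not above background on any of the 6 arrays. The median difference over the 27 genes was 0.43.

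Of 20 Hox genes, 7 were higher and none lower (35% called, beside 13.3% of all genes). Hoxc6 read 8.19, 8.26 and 8.21 against 5.24, 5.78 and 5.38, and Hoxc9 read 7.76, 7.82 and 7.86 against 5.22, 5.11 and 5.70. Hoxd10 was at least 3.57-fold higher, and Hoxa7 (1.67), Hoxd8 (1.53), Hoxd9 (1.22) and Hoxd4 (0.61) completed the group. The posterior genes Hoxa13 (-0.19) and Hoxc13 (-0.42) were not called. The median over the list was 0.30, and it was 1.37 when detection on all 3 arrays of a condition was required. That filter can keep a gene through the clone in which it is high, as for Hoxd10, so the larger median follows in part from the selection. A gene near background in Control_R also has little room to be lower in Bub1b_R.

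Signaling genes gave a mixed picture by pathway. The share called was 21.7% of the Wnt, 33.3% of the FGF and ERK and 47.1% of the BMP list, beside 13.3% of all genes. For the Nodal and activin list it was 13.3%, no more than over all genes. Among 23 Wnt targets and components, 5 were higher and none lower, and besides T, Sp5 and Wnt3, which also belong to the streak list, these were the feedback inhibitors Axin2 (0.94) and Notum (0.79). Axin2 read 8.33, 8.39 and 8.33 against 7.47, 7.43 and 7.32. Of 21 FGF and ERK genes, 5 were higher, led by the ERK phosphatase Dusp4 (1.62) and including Dusp6 (0.92), Phlda1 (1.04) and the ETS factor Etv1 (0.90). Fgf4, the autocrine FGF ligand of naive ESCs, was lower, at 8.00, 7.93 and 8.11 against 9.25, 9.18 and 9.18 (difference -1.19), as was Fos (-0.59). Of 17 BMP genes, 6 were higher, including the target Id3 (1.71), the homeobox target Msx1 (1.16) and the antagonist Nog (at least 1.23-fold), whereas Bmp7 (-1.22) and Tbx3 were lower and Id1 (0.40) was not called. Of 15 Nodal and activin genes, 2 were higher, Fst among them, and none was lower.

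Pluripotency genes were called in both directions, 35% of the naive and 11.1% of the core list beside 13.3% of all genes. The defining ESC markers Pou5f1 and Nanog were detected on all 6 arrays. Pou5f1 read 12.29, 12.25 and 12.42 in Bub1b_R and 12.72, 12.76 and 12.76 in Control_R, a difference of -0.43 (adjusted p = 0.00034) that was under the fold limit, though the clones did not overlap. Esrrb (-0.39, adjusted p = 1.7e-05), Sox2 (-0.32, 0.00544) and Tcl1 (-0.23, 0.00119) were lower by less than 1.5-fold, and Nanog, at 12.73, 12.67 and 12.49 against 12.48, 12.23 and 12.30, was 0.29 higher (adjusted p = 0.0236). Klf4 (0.06) and Zfp42, also called Rex1 (0.22), had adjusted p of 0.732 and 0.163. Tbx3, a T-box factor of naive ESCs, was called at -0.60, but not without Control_R replicate 2 (-0.57) or replicate 3 (-0.58), nor after median scaling (-0.47). Over the 20 naive pluripotency genes, 4 were lower (Fgf4, Pecam1 at -0.93, Spic at -0.76 and Tbx3) and 3 higher, among them Dppa3 (0.67), which protects DNA methylation in the zygote. Over 18 core pluripotency genes, 1 was higher (Smarcad1, a chromatin remodeler, 0.75) and 1 lower (Zfp143, -0.90). Of 16 LIF and STAT3 genes (18.8% called), the feedback inhibitor Socs3 (-0.72) was lower, and Socs2 (0.66) and the AP-1 subunit Junb (0.60) were higher. The call of Junb was lost without Bub1b_R replicate 2 (0.57) or Control_R replicate 2 (0.52).

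**Figure D2:**
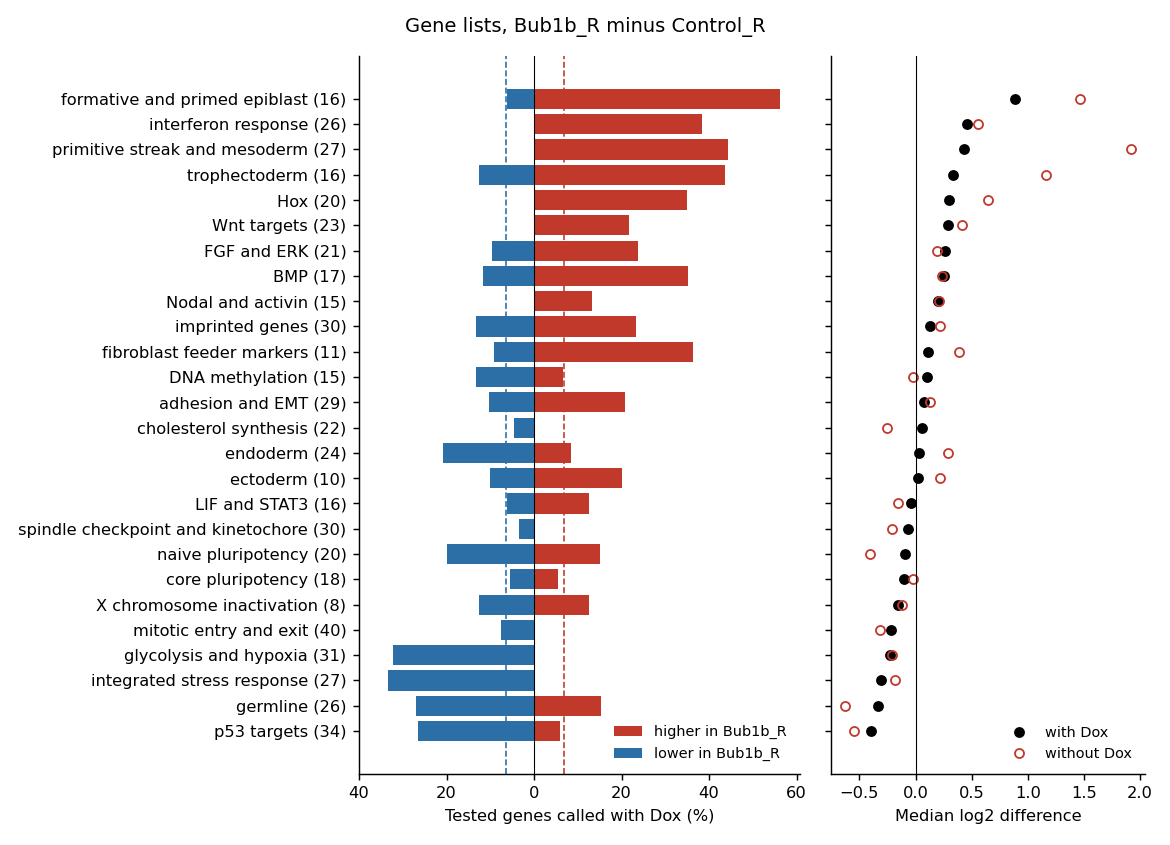
Left, the percentage of tested genes (number in parentheses) called higher (right of 0) or lower (left of 0) in Bub1b_R with Dox, for 26 gene lists. Dashed lines mark the 6.88% and 6.44% called in each direction over all genes. Right, the median log2 difference of each list with Dox (filled) and without Dox (open). The formative and primed epiblast list had the highest median with Dox (0.89) and the p53 target list the lowest (-0.40). Lists share genes, and no test was made of a list.

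Of 26 interferon response genes, 10 were higher, none was lower and 16 were not called, with a median of 0.46. Gbp2, a guanylate-binding GTPase, read 10.68, 10.73 and 10.77 against 8.94, 9.19 and 8.79 (difference 1.75). Irf1, an interferon regulatory transcription factor, read 12.21, 12.15 and 12.12 against 10.71, 10.80 and 10.70 (difference 1.43). Usp18, which removes ISG15, was at least 2.14-fold higher, and Eif2ak2, the double-stranded RNA-activated kinase PKR, was 0.97 higher. Stat2 (-0.03) and Irf9 (-0.05), subunits of the transcription factor downstream of type I interferon, were not called.

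Of 34 p53 targets, 9 were lower, 2 were higher and 23 were not called, with a median of -0.40, and the arrays of the clones did not overlap for any of the 34, beside 51.2% of all genes. Pmaip1, which encodes the BH3-only protein Noxa, read 6.42, 6.55 and 6.72 in Bub1b_R and 8.21, 8.05 and 8.06 in Control_R, a difference of -1.54. The epoxide hydrolase Ephx1 differed by -1.35. Mdm2, the ubiquitin ligase of p53, differed by -0.53 and was not called, nor were Cdkn1a (-0.12) and Trp53 itself (0.15). The 2 higher genes were the 14-3-3 protein Sfn (1.64) and Casp8 (at least 2.21-fold), an initiator caspase.

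Of 27 integrated stress response genes, 9 were lower, none was higher and 18 were not called, with a median of -0.31. Ddit3, the factor CHOP, read 9.10, 9.46 and 9.35 against 10.77, 10.53 and 10.83 (difference -1.41). Chac1 read 9.36, 9.34 and 9.23 against 10.57, 10.57 and 10.56 (difference -1.25), and Nupr1 (-1.17), Trib3 (-1.11) and Atf4 (-0.63) were lower as well. The amino acid synthesis genes Asns (-0.08), Psat1 (-0.03) and Phgdh (-0.03) were not called. Of 31 glycolysis and hypoxia genes, 10 were lower and none higher, including Ndrg1 (-1.48), the angiogenic ligand Vegfa (-0.82), Hk1 (-0.98) and Car9, not detected in Bub1b_R and at least 1.62-fold lower. Ldha (0.18) and Slc2a1 (0.26) were not called. After median scaling the medians were -0.24 for the p53 targets and -0.05 for the glycolysis and hypoxia genes, beside 0.08 for all probes. Of 22 cholesterol synthesis genes, 1 was called, the feedback regulator Insig1 (-0.68).

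The promoters of 3 of these lists were searched for the site of the factor best known to bind them, as a description. Promoters were the RefSeq windows of GRCm38.p6, from 250 bases before to 50 bases after a start site, and both strands were read. The interferon-stimulated response element, taken as GAAA, any pair of bases and GAAA again, was in 3.44% of 32851 promoters and in a promoter of 3.99% of 27025 genes. It was in a promoter of 12 of the 22 interferon genes with a window, and of 4 of the 9 called ones. The C/EBP-ATF element bound by Atf4 and Ddit3, taken as TGATGNAA, was in 3.97% of promoters and 4.51% of genes. It was in 8 of 23 stress response genes with a window, and in 4 of the 7 called ones. The TCF/LEF site, taken as CTTTGAT, was in 3.73% of promoters and 4.29% of genes, and in 2 of 16 Wnt genes with a window, of which Sp5 was called. The windows of 30 bases below surround the element in called genes, with its letters in capitals, on the strand of the gene.
Gbp2, chr3:142620594-142620623, plus strand: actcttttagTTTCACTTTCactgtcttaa
Eif2ak2, chr17:78882535-78882564, minus strand: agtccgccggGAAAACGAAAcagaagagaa
Chac1, chr2:119351039-119351068, plus strand: ttccctgccgTTGCATCActcctgccaggt
Nupr1, chr7:126625561-126625590, minus strand: aagggccagaTTGCATCAgacagggcttgg
Sp5, chr2:70474809-70474838, plus strand: gcaaggccccCTTTGATcaggaaaatccaa

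Germline genes were called in both directions, 7 lower and 4 higher of 26. Dmrtc2 (-1.40), the piRNA pathway genes Piwil4 (-1.21) and Piwil2 (-1.12), and Aurkc were lower, and Nanos3, an RNA-binding protein of primordial germ cells, was at least 1.42-fold higher. Of 30 imprinted genes, 7 were higher and 4 lower. Igf2, the paternally expressed growth factor, was among the brightest genes, at 14.21, 14.24 and 14.10 against 12.63, 12.72 and 12.60 (difference 1.53). Peg3 was 1.25 higher and Grb10 0.93 higher, whereas Nnat was at least 1.87-fold lower and Slc22a18 differed by -0.96. The other probe of Slc22a18 gave -0.21. H19, the noncoding neighbor of Igf2, differed by 0.35 and was not called. Among 15 DNA methylation genes (20% called, beside 13.3% of all genes), Dnmt3b was higher. The cytidine deaminase Apobec1 (-1.12) and the stress-induced Gadd45b (-0.87) were lower.

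Trophectoderm genes were higher in 7 and lower in 2 of 16 cases. Cdx2, Gata3 (at least 1.41-fold) and the keratins Krt8 (1.38) and Krt18 (0.90) were higher, and Krt7 (-0.78) and Ascl2 (-0.64) were lower. Elf5 and Hand1, which mark trophoblast, did not pass the detection filter. Of 24 endoderm genes, 2 were higher and 5 lower. Tmprss2 was 1.90 higher, and Hnf4a (-0.82), Amn (-0.82), Gata6 (-0.64) and Hhex (-0.66) were lower, while Gata4 and Sox7 were not above background on any of the 6 arrays. Of 10 ectoderm genes, Fgf5 and the intermediate filament gene Nes (1.48) were higher and the neuronal factor Neurod1 (-0.90) was lower. Vim (0.93), Cd44 (1.10, with 2 other probes at -0.05 and 0.24), the protease Mmp14 (0.98) and Twist2 (at least 1.71-fold) were among 6 of 29 adhesion and mesenchymal genes that were higher. The water and glycerol channel gene Aqp3 (-1.30), Icam1 (-0.97) and the integrin Itgb4 (-0.72) were lower, and Cdh1 differed by -0.03.

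The list of fibroblast markers moved with these genes in part. Of 11 tested markers, the smooth muscle genes Tagln (1.03) and Acta2 (0.96) and the collagens Col3a1 (0.65) and Col1a1 (0.63) were higher, and Pdgfrb was lower. The mean normalized log2 intensity of the 23 probes of the list was 6.58 to 6.69 on the Bub1b_R arrays and 6.38 to 6.43 on the Control_R arrays. Their summed signal before normalization, which also follows the brightness of an array, was 11329 to 12629 and 5225 to 6793. This sum rests mostly on the probes of Acta2, the brightest with a mean of 12.97 in Bub1b_R and 12.00 in Control_R. It is thus largely a reading of 1 gene. Of the 23 probes, 10 to 12 were detected on the Bub1b_R arrays and 10 to 11 on the Control_R arrays. Dcn and Lox were detected on 1 array of Bub1b_R and none of Control_R, and Col1a2, Postn, Lum and Fbln5 did not pass the detection filter. The calls of the collagens were lost without Control_R replicate 3 (Col3a1 0.54, Col1a1 0.38), and that of Col1a1 also without Bub1b_R replicate 3 (0.53). The part of fibroblasts in the streak and mesenchymal differences was not tested, and in bulk RNA more cells of a type and more RNA per cell cannot be told apart.

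A chromosome was found for 10654 of the 11177 genes. The X chromosome had the highest share of higher calls, 54 of 357 genes (15.1%), beside 5.07% to 10% on the 19 autosomes, and 14 genes were lower (3.92%). The median difference of X-linked genes was 0.094, and those of the autosomes ran from -0.055 to 0.042. Against the mean of the Control_R arrays, the X-linked median was 0.126, 0.084 and 0.078 on the Bub1b_R arrays and 0.012, 0.006 and -0.019 on the Control_R arrays themselves. Among the 68 called X-linked genes, 59 were called without Dox too, and all had the same sign. Gpr23 (2.58) and Rnf12 (0.85), the ubiquitin ligase that promotes X inactivation, are named by the rule, and Tceal5 (1.94), Capn6 (1.80) and the chromatin remodeler Smarca1 (1.43) were picked after their values were seen. In the list of 8 X inactivation and sex-linked genes, Rnf12 was called higher and Eif2s3y, on the Y chromosome, lower (-0.64). Rnf12 was near background in Control_R, where 1 of 3 arrays detected it. Eif2s3y had a mean of 6.94 in Bub1b_R and 7.58 in Control_R, beside 8.84 to 10.88 in the other rescue clones with Dox. The call of Eif2s3y was lost without Bub1b_R replicate 3 (-0.44) or Control_R replicate 2 (-0.53).

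**Figure D3:**
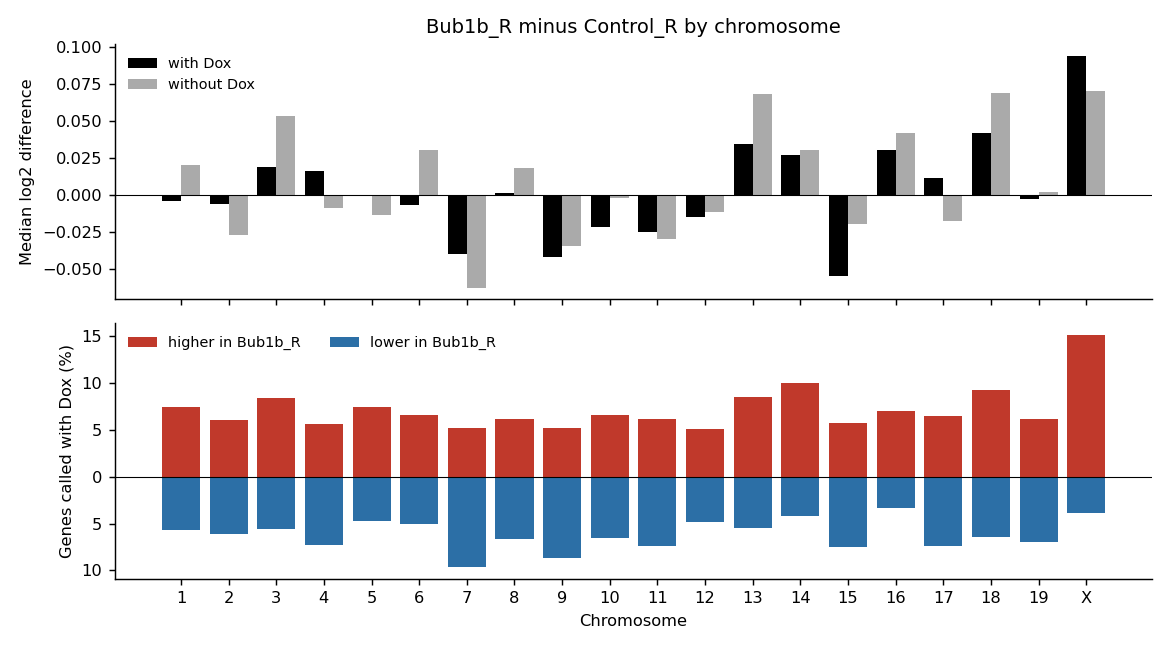
Upper panel, median log2 difference (Bub1b_R minus Control_R) of the tested genes of each chromosome with Dox (black) and without Dox (grey). Lower panel, percentage of genes called higher (above 0) or lower (below 0) with Dox. The X chromosome had the largest median (0.094) and share of higher calls (15.1%).

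Most of the differences with Dox were also there without it. Without Dox 3423 probes (22.6%) were called, the arrays of the clones did not overlap for 62.4% of genes, and 1588 were called in both comparisons. This was 82.6% of the calls with Dox and 46.4% of those without. All 1588 had the same direction, 808 higher and 780 lower, and 1897 of the 1923 calls with Dox (98.6%) kept their sign without Dox. Across the 15151 probes the differences with and without Dox correlated (Pearson r = 0.839, Spearman rho = 0.766), as a description over probes of the same clones that are not independent.

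The change of the difference on Dox withdrawal was called for 780 probes (5.15%). For 1439 of the 1923 calls with Dox (74.8%), this change had an adjusted p of 0.05 or more, which does not show that the difference was equal in both states. It was called for 277, and 235 of these lay further from 0 without Dox. Of the 335 probes called with Dox and not without, 39 had a called change, and of the 1835 called only without Dox, 397 had one.

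**Figure D4:**
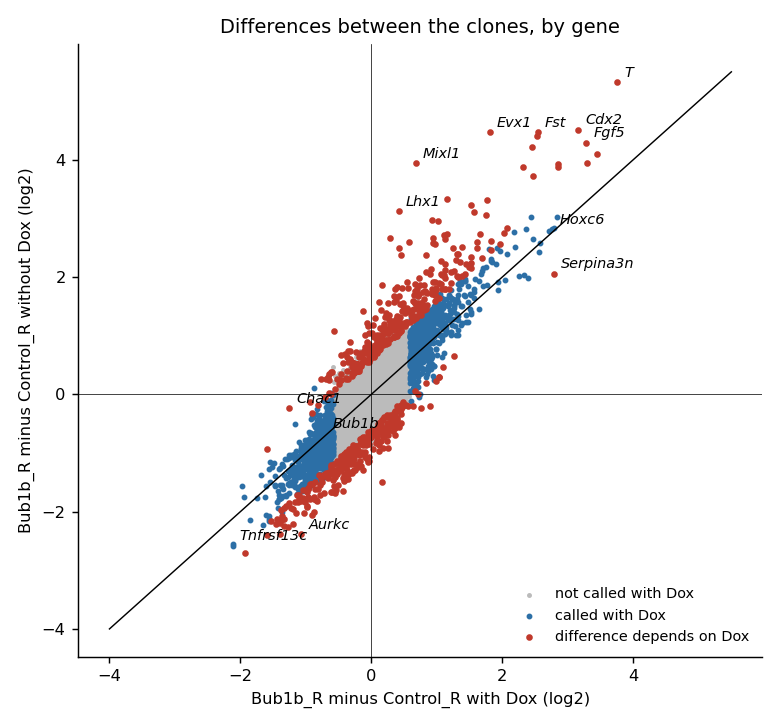
Log2 difference (Bub1b_R minus Control_R) of each of 11177 genes with Dox (horizontal axis) and without Dox (vertical axis), with the line of equality. Blue points were called with Dox, red points are genes whose difference changed with Dox whether or not they were called with it, and grey points are the rest. Hoxc6 lies near the line, and T, Evx1, Mixl1 and Lhx1 above it.

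Single genes whose differences were much alike in both states included Hoxc6 (2.76 with and 2.82 without Dox) and Hoxc9 (2.47 and 2.65). Others were Wnt8a by its brightest probe (2.79 and 2.83), Ly6a (2.71 and 2.78), Cxcl12 (1.93 and 1.92) and Igf2 (1.53 and 1.37). For Hoxc6 the change was 0.06 (adjusted p = 0.918). The dimmer probes of Wnt8a gave larger differences without Dox (3.57 and 1.70) than with it. The Hox list as a whole was not alike in both states. Of its 20 genes, 3 had a called positive change and none a negative one, beside 2.95% and 2.61% of all genes. Without Dox 11 Hox genes were higher, in place of 7, and the list median was 0.65, in place of 0.30. None of the 34 p53 targets and none of the 31 glycolysis and hypoxia genes had a called change, beside 5.56% of all genes. At that share few calls would come up in lists of this size, so their absence does not show that these differences were alike. Without Dox 17 of the p53 targets were lower, in place of 9, and their median was -0.55, in place of -0.40. For Gdf15 the difference was -1.66 with and -2.22 without Dox (adjusted p of the change 0.0796).

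Streak genes as a list diverged further without Dox. Of the 27, 18 had a called positive change and none a negative one, beside 2.95% and 2.61% of all genes, and their median difference went from 0.43 to 1.92. The detection filter can keep a gene through arrays without Dox, as for Lhx1, which no array with Dox of any clone detected. A gene near background with Dox also has little room for a negative change. These counts and the larger median thus follow in part from the selection. Mixl1 read 5.41, 5.48 and 5.56 in Bub1b_R with Dox and 8.72, 8.77 and 8.68 without, whereas Control_R stayed between 4.60 and 4.95. The difference was 3.26 larger without Dox (adjusted p = 6.8e-13). In Bub1b_R, Lhx1 read 4.80, 5.13 and 5.41 with Dox and 8.04, 7.65 and 8.06 without, and Mesp1 5.47, 5.58 and 5.85 with Dox and 8.14, 7.92 and 7.87 without. In both genes every array without Dox lay above every array with it. T, already far apart with Dox, was at 11.69, 11.75 and 11.73 without it, against 6.46, 6.40 and 6.35 in Control_R (change 1.56, adjusted p = 2.6e-07). Fst (1.93), Evx1 (2.66) and Cdx2 (1.35) changed in the same way.

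**Figure D5:**
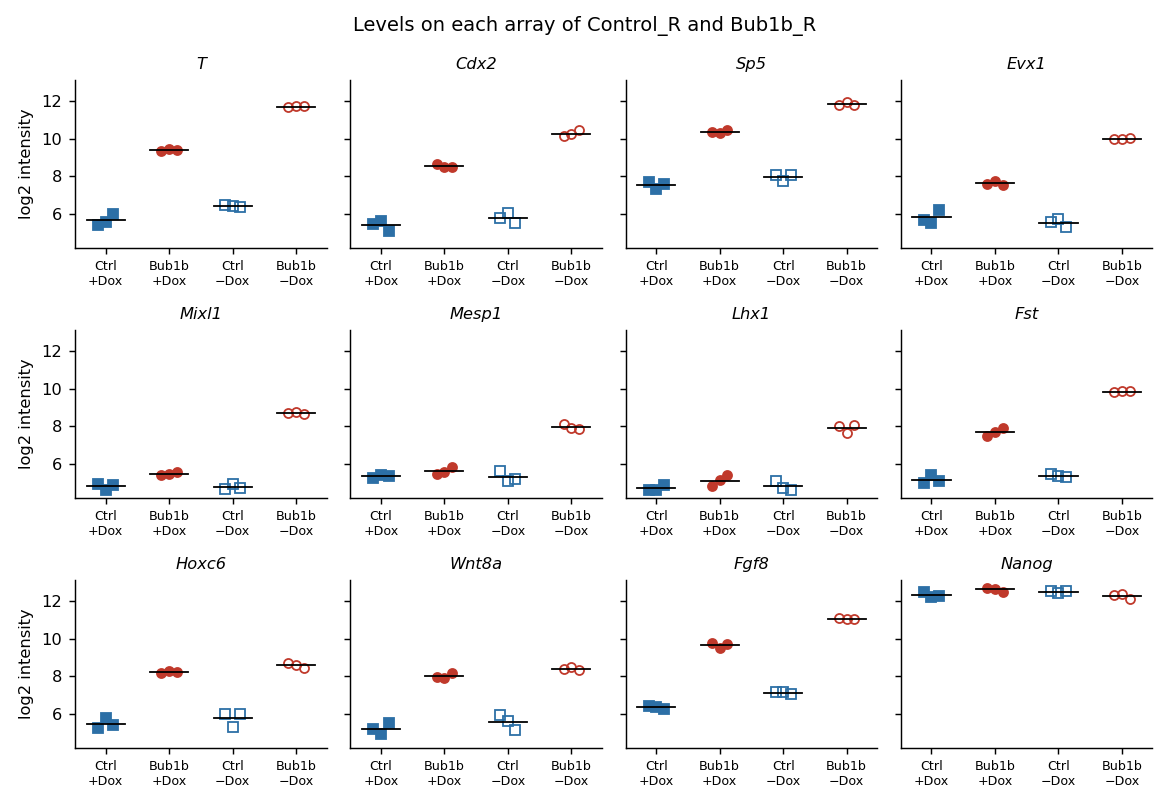
Normalized log2 intensity of 12 genes on each array of Control_R (blue squares) and Bub1b_R (red circles) with Dox (filled) and without Dox (open). Black lines are means of 3 arrays. T, Cdx2, Hoxc6, Wnt8a and Fgf8 were already high in Bub1b_R with Dox, and Mixl1, Mesp1 and Lhx1 were near the level of Control_R there.

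Some differences were smaller without Dox. Of the 27 integrated stress response genes, 5 had a called positive change and none a negative one, beside 2.95% and 2.61% of all genes. In this list 4 genes were lower and 2 higher without Dox, in place of 9 and none with it. The list median was -0.18 without Dox, in place of -0.31. Chac1 read 9.51, 9.55 and 9.49 in Bub1b_R and 9.74, 9.74 and 9.77 in Control_R without Dox, so that the difference went from -1.25 to -0.24 (change 1.02, adjusted p = 3.5e-08). This change lay mostly in Control_R, whose mean was 10.57 with and 9.75 without Dox. The mean of Bub1b_R was 9.31 with and 9.52 without Dox. Dppa3 went from 0.67 to 0.05 and Serpina3n from 2.79 to 2.06. Others were larger without Dox. In the checkpoint list Ttk, the kinase Mps1, differed by -0.26 with and -1.11 without Dox (change -0.85, adjusted p = 0.0217), and Zwilch, of the complex that recruits dynein to kinetochores, by -0.25 and -0.91. Fgf4 went from -1.19 to -2.21.

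The other rescue clones with Dox share the Control_R arrays and lie in a set of arrays with higher signals, so their levels are given side by side without a test. T had a mean of 9.41 in Bub1b_R, 9.36 in Ppm1g_R, 7.90 in Ppp2r1b_R, 6.41 in Chek1_R and 5.65 in Control_R. Hoxc6 had means of 8.22, 8.23, 6.43, 5.47 and 5.46 in the same order, and Serpina3n of 7.70, 5.55, 4.98, 4.81 and 4.90. Gdf15 had a mean of 7.03 in Bub1b_R, 6.86 in Ppm1g_R, 6.96 in Ppp2r1b_R, 7.15 in Chek1_R and 8.69 in Control_R. Ddit3 had means of 9.30, 8.16, 8.24, 8.84 and 10.71 in the same order, and Gpr23 of 10.07, 9.81, 9.99, 9.74 and 7.49. For Gdf15, Ddit3 and Gpr23 every rescue clone lay on the side of Bub1b_R, so these differences were not particular to it. How many genes follow each pattern was not counted.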

How the data were processed

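The authors deposited background-subtracted signal intensities without normalization, and detection p-values for 25697 probes on 30 arrays. Per the labels lumi was used, with no role stated. In R 4.3.3 with limma 3.58.1, intensities were normalized with neqc (offset 16, quantiles, log2), and the 15151 probes detected (p under 0.05) on 3 or more arrays were tested. Detection p cells damaged by a spreadsheet, 14 of them on 1 array of Bub1b_R without Dox, were repaired, and the 6 arrays with Dox had none. A single limma fit of 10 condition means gave the contrasts with Dox, without Dox and their difference, adjusted by Benjamini and Hochberg's method over all tested probes. The number of arrays limits the precision.

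The comparison and the 26 gene lists were chosen with earlier results of these data known. Genes named are Bub1b, the checkpoint list, 11 genes that the study measured, the 12 highest and 12 lowest with Dox, up to 5 called genes with the largest difference of each list, and the 8 highest and 8 lowest by change on withdrawal, with no clone or model names and, for the ranked genes, no overlap between clones and detection on all arrays of 1 clone. Further list members are named after their values were seen, and a few genes are not reported here. Several probes were tested for 40 named genes, of which 28 were called by the brightest, 4 of them not by every probe and none in opposite directions. Chromosomes came from RefSeq symbols and synonyms (GRCm38.p6). The scripts were tested on simulated data.

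Alternatives were no background correction, median scaling, offsets of 50 and 200, no or a stricter detection filter, fits of fewer arrays, a replicate block, limits of 2-fold or none, a Student's t-test, the mean of a gene's probes, and leaving out each array.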

Additional observations from a re-analysis of the deposited data

Results flagged for a closer look

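Of the 164 genes named by the rule, 48 had a difference between Bub1b_R and Control_R that changed with Dox, by limma's test of the change itself over all probes. The values below are the log2 difference without Dox minus that with Dox, 28 positive and 20 negative. They are given for 3 against 3 arrays in each state, and for the 8 highest and 8 lowest genes the change is what selected them. A called change can arise in either clone. For AF067061 it lay in Control_R (mean 7.75 with and 8.84 without Dox), beside 7.30 and 7.20 in Bub1b_R.

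Among streak genes the changes were positive, with Mixl1 (3.26), Lhx1 (2.70), Evx1 (2.66), Mesp1 (2.38), Isl1 (2.03), Agtrl1 (2.06), Fst (1.93), T (1.56), Cdx2 (1.35), Wnt3 (1.22), Sp5 (1.02) and Fgf8 (0.65). So were those of the signaling, epiblast, mesenchymal, Hox and trophectoderm genes Msx1 (2.17), Axin2 (0.98), Notum (0.70), Dusp4 (0.98), Dusp6 (0.89), Fgf5 (1.01), Twist2 (0.93), Hoxd8 (0.81), Gata3 (0.83) and Krt8 (0.64), and of St3gal6 (2.07), Usp18 (1.54), Eif2ak2 (0.72), Tagln (0.87), Pdgfrb (0.59) and Chac1 (1.02). In Pdgfrb and Chac1 a positive change brought a negative difference nearer to 0.

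The changes were negative for the mitotic and germline genes Aurkc (-1.32), Kif18a (-0.60), Zwilch (-0.66), Ttk (-0.85), Mis12 (-0.72) and Dmrtc2 (-0.99), and for Fgf4 (-1.02), Pecam1 (-0.60), Dppa3 (-0.62), Apobec1 (-0.71) and Slc22a18 (-0.65). They were also negative for Serpina3n (-0.73), Dnaic1 (-0.78), Siglech (-1.07), H2-DMb1 (-1.09), Nfe2l3 (-1.09), Gstp2 (-1.10), Defb42 (-1.16), Trim37 (-1.17) and AF067061 (-1.19). For Nfe2l3, Dppa3 and Serpina3n this was a higher level in Bub1b_R with Dox that was smaller or not called without it, and the other negative changes were in genes already lower with Dox or not called there.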

How the results depend on the processing

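The number of probes called with Dox was 1220 with an offset of 50, 495 with an offset of 200, 503 at 2-fold and 6052 with no fold limit, beside 1923. Without Dox it was 1175 with an offset of 200, 1222 at 2-fold and 8013 with no limit, beside 3423. For the change on withdrawal it was 434 and 119 with offsets of 50 and 200, 132 at 2-fold and 1847 with no limit, beside 780. Calls shared by both comparisons were 442 with an offset of 200, beside 1588. The other alternatives gave counts within 1.5 times. Leaving out 1 array gave 1954 to 2011 probes with Dox, 3437 to 3555 without, 697 to 817 for the change and 1578 to 1621 shared. The replicate block gave 1924, 3424, 776 and 1588. Replicate numbers did not pair the arrays with Dox (deviations of equal numbers correlated with r of 0.00, -0.01 and 0.07). A Student's t-test on the values normalized here called 6223 probes with Dox at an unadjusted p under 0.05, 4266 after Benjamini-Hochberg and 1680 of these at 1.5-fold. The paper names this test for its experiments in general. For the changed genes of the arrays it refers to earlier work, so these counts need not be those of its method. Median scaling gave 68.4% of the calls with Dox as higher, beside 52%.

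A change of sign came up only for genes that were not called: after median scaling for Cenpa (0.01), Cenpk (0.08) and Cenpt (0.11), and on leaving out 1 array for Cenph (range -0.09 to 0.20), Klf4 (-0.04 to 0.18), Cenpk (-0.24 to 0.01) and H2-DMb1 (-0.03 to 0.26). Of the 164 named genes, 46 lost the call with an offset of 200, 17 with 50, 8 with median scaling and 5 without background correction. The number called moved by over 1.5 times in 15 of the 26 lists with an offset of 200, in 5 with 50, in 3 with median scaling and in 1 without background correction. The median moved by more than the replicate SD in 13 lists with median scaling, 10 with an offset of 200, 5 without background correction, and 3 each with an offset of 50 and the stricter filter. The cause was not tested. Detection limits what can be said of genes near background, for which folds are bounds.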
